A study of Mus musculus with 2 samples.

Results

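The genes described here encode 8 collagen chains that build the matrix next to the cell or span its membrane: the collagen VI chains *Col6a1*, *Col6a2* and *Col6a3*, the collagen VIII chains *Col8a1* and *Col8a2*, and the transmembrane collagens *Col13a1*, *Col23a1* and *Col25a1*. They were chosen by name, and each was found as 1 row among the 24421 rows of the count table. RNA-Seq had been performed on 1 library of primary chondrocytes, released with collagenase from the rib cartilage of newborn mice and used within 2 passages, and on 1 library of primary dermal fibroblasts, from the dorsal skin of newborn mice. The methods name no genetic change or treatment for either preparation, and neither the labels nor the methods say how many animals were pooled. The dermal fibroblasts served as the control cell type, and the comparison asks which genes are higher in chondrocytes.

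The libraries held 18788599 counts in chondrocytes and 17563724 counts in dermal fibroblasts. Levels are given as scaled CPM, which are counts per 1000000 of a library's total after edgeR TMM scaling (a factor that offsets genes taking a large part of 1 library). With 1 library per cell type there was no replicate check and no p-value. A difference is therefore given as a fold with its 95% Clopper-Pearson counting interval, which covers counting error alone and neither animals nor cultures. The reads carried no molecular identifiers and need not be independent molecules, so that even the counting error may be larger. Fold calls used a threshold of 2. The labelled cell types were read beside lists of their markers. These lists were chosen with earlier results of these data known, so the outcome is not an independent check. All 7 chondrocyte markers were over 2-fold higher in the chondrocyte library, and *Col2a1* and *Matn1* had 0 counts in dermal fibroblasts. All 6 dermal fibroblast markers were over 2-fold higher in the dermal fibroblast library, with a summed level of 33292 scaled CPM against 4114 in chondrocytes. In such bulk samples, fewer cells of a type and less RNA per cell cannot be told apart.

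Collagen VI is a heterotrimer whose molecules join end to end into beaded microfilaments, and it is the characteristic collagen of the pericellular matrix that surrounds each chondrocyte. It is also abundant in dermis, muscle and tendon, where it links cells to interstitial fibrils. Collagen VIII is a short-chain collagen that forms sheet-like networks, best known from the membrane below the corneal endothelium and from vessel walls. Collagens XIII, XXIII and XXV are type II membrane proteins whose collagenous ectodomains stay at the cell surface or are released by proprotein convertases.

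Of the 8 chains, 2 were over 2-fold higher in chondrocytes (*Col8a2* and *Col13a1*), 3 were over 2-fold higher in dermal fibroblasts (*Col6a3*, *Col8a1* and *Col23a1*), and 3 lay within 2-fold (*Col6a1*, *Col6a2* and *Col25a1*). Among the 17718 genes with a count in at least 1 library, 10.7% were over 2-fold higher in chondrocytes and 13.9% in dermal fibroblasts. Among the 14730 genes with at least 10 counts over both libraries, a minimum that all 8 chains reached, the shares were 12.0% and 16.2%. For each of the 5 chains past the threshold the whole counting interval lay beyond 2-fold, which held for 5.88% and 8.73% of the 17718 genes. Past 4-fold were *Col8a2* and *Col13a1* in chondrocytes and *Col23a1* in dermal fibroblasts, against 4.02% and 5.24% of the 17718 genes. The median log2 fold, chondrocytes over dermal fibroblasts, was -0.21 for the 8 chains and 0.00 for the 15616 genes with more than 3 counts in a library. The 3 collagen VI chains had log2 folds below 0 that differed in size (*Col6a1* turned above 0 with *Actb* scaling), while collagen VIII and the transmembrane collagens each held chains past the threshold in opposite directions.

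**Figure D1:**
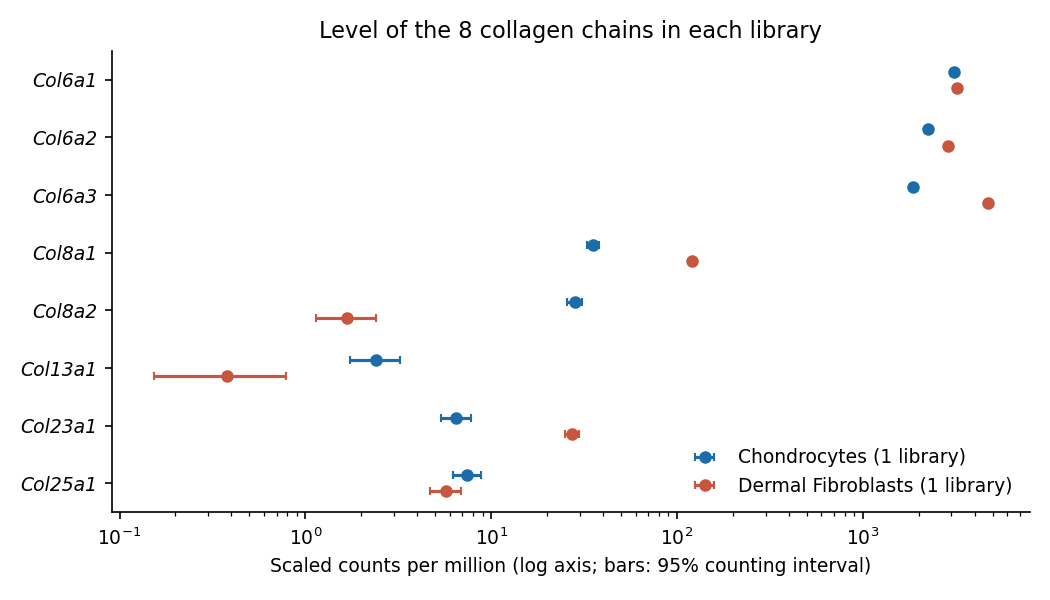
Level of the 8 collagen chains in the 2 libraries, in scaled CPM on a log axis, with 1 point per library and bars for the 95% counting interval. The collagen VI chains lie between 1862 and 4697 scaled CPM in each library, and *Col13a1* lies lowest in each.

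*Col6a1* encodes the α1(VI) chain. It had 55357 counts in chondrocytes against 59580 in dermal fibroblasts, or 3088 and 3236 scaled CPM. The libraries were nearly level for this chain, with a log2 fold of -0.07 whose sign turned to 0.05 when the libraries were scaled to *Actb*. *Col6a2*, the α2(VI) chain, had 40258 and 52876 counts, or 2246 and 2872 scaled CPM. It was 1.28-fold higher in dermal fibroblasts (interval from 1.26 to 1.30). *Col6a3*, the long α3(VI) chain whose C-terminal fragment is released as endotrophin, had 33373 and 86473 counts, or 1862 and 4697 scaled CPM. It was 2.52-fold higher in dermal fibroblasts (interval from 2.49 to 2.55). *Col6a3* was thus the lowest of the 3 chains by counts in chondrocytes and the highest in dermal fibroblasts.

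Summed over the 3 chains, collagen VI made up 0.687% of the chondrocyte library and 1.13% of the other. Its summed counts, after scaling, were 1.50-fold higher in dermal fibroblasts (interval from 1.49 to 1.51). This sum is not divided by length, so a transcript of *Col6a3*, the longest chain, weighs most in it. The interval does not cover this weighting. Within the sum, *Col6a1* made up 42.9% of the counts in chondrocytes against 29.95% in dermal fibroblasts. *Col6a2* made up 31.2% and 26.6%. *Col6a3* made up 25.9% and 43.5%. The share of *Col6a3* was thus higher in dermal fibroblasts, and those of the other chains were lower. Per kilobase of exon, the share of *Col6a1* was 62.3% in chondrocytes and 50.0% in dermal fibroblasts, the largest in each. That of *Col6a2* was nearly level at 23.9% and 23.4%, and that of *Col6a3* was 13.8% and 26.7%. A ratio of chains taken within a library needs no scaling between libraries, and its change between libraries is free of gene length. The ratio of *Col6a3* to *Col6a1* was 2.41-fold higher in dermal fibroblasts (interval from 2.37 to 2.45), and that of *Col6a3* to *Col6a2* was 1.97-fold higher (interval from 1.94 to 2.01). The ratio of *Col6a2* to *Col6a1* was 1.22-fold higher there (interval from 1.20 to 1.24).

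Levels of different chains can be compared only per length. Per kilobase of annotated exon, *Col6a1* stood at 703 and 737 scaled CPM in chondrocytes and dermal fibroblasts, *Col6a2* at 269.8 and 345, and *Col6a3* at 156 and 393. Per kilobase of the longest annotated coding sequence, *Col6a1* stood at 1003 and 1051, *Col6a2* at 723 and 925, and *Col6a3* at 233 and 589. *Col6a1* was highest and *Col6a3* lowest in chondrocytes by either length. The order of *Col6a2* and *Col6a3* in dermal fibroblasts depended on the length used, since the annotated exons of *Col6a2* span 8.33 kb together and its coding sequence 3.11 kb. The level of *Col6a3* per exon length was 0.222 times that of *Col6a1* in chondrocytes and 0.534 times in dermal fibroblasts, and the coding lengths gave 0.233 and 0.560.

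**Figure D2:**
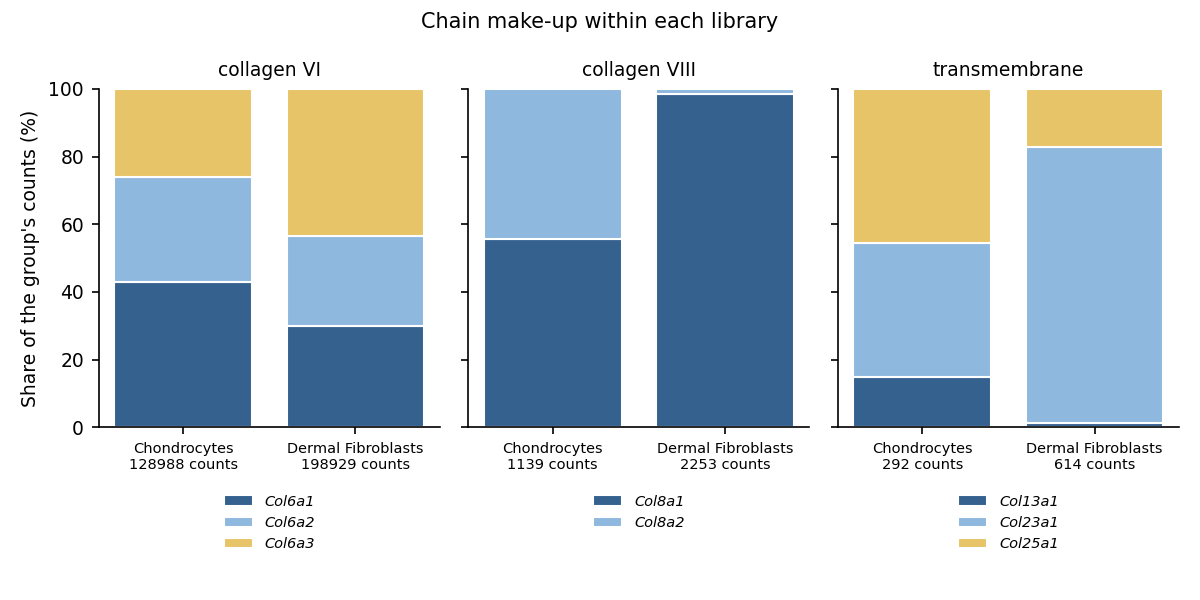
Share of the counts of each collagen group (vertical axis, %) taken by each chain in each library, with the group's counts under each bar. The counts are not divided by gene length. *Col6a3* takes 25.9% of the collagen VI counts in chondrocytes against 43.5% in dermal fibroblasts, and *Col8a2* takes 44.3% and 1.38% of the collagen VIII counts.

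*Col6a1* and *Col6a2* both lie on the minus strand of chromosome 10 of GRCm38, from 76708792 to 76726044 and from 76595756 to 76623630. *Col6a3* lies on the minus strand of chromosome 1, from 90766860 to 90844001. The 250 bases before an annotated start of each gene are shown, because the 3 chains join 1 molecule while their levels differed unequally between the libraries. These sequences are those of RefSeq on GRCm38.p6, read 5′ to 3′ on the strand of the gene, and RefSeq windows were found for all 8 chains, with 2 starts for *Col6a2*. Capitals mark matches on either strand to TATAAA (the TATA box), GGGCGG (the GC box), CCAAT, or AACAAT (a core of SOX family sites).
Col6a1 (chr10:76726045-76726294, minus strand): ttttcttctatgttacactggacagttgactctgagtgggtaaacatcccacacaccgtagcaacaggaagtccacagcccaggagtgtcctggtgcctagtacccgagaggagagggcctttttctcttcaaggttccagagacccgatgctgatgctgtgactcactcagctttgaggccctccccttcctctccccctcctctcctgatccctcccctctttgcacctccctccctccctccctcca
Col6a2 (chr10:76623631-76623880, minus strand): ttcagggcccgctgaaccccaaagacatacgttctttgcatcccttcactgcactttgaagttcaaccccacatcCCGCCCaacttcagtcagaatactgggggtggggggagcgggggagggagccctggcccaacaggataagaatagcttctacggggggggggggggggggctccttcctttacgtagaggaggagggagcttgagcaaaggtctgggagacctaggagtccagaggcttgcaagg
Col6a3 (chr1:90843972-90844221, minus strand): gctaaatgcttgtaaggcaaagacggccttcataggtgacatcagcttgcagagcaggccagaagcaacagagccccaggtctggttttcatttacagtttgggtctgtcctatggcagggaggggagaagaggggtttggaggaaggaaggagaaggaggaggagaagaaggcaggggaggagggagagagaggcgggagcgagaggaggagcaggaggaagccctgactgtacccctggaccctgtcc
The windows of *Col6a1* and *Col6a3* held none of the 4 motifs. The window of *Col6a2* held 1 match to the GC box, read as CCGCCC. The window before its inner start, which lies mostly within the gene and is not shown, held 3 such matches, of which the pair nearest the start overlap each other.

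The chains of collagen VIII differed in opposite directions. *Col8a1*, the α1(VIII) chain, had 634 counts in chondrocytes against 2222 in dermal fibroblasts, or 35.4 and 121 scaled CPM. It was 3.41-fold higher in dermal fibroblasts (interval from 3.12 to 3.73). *Col8a2*, the α2(VIII) chain, had 505 counts in chondrocytes against 31 in dermal fibroblasts, or 28.2 and 1.68 scaled CPM. It was 16.7-fold higher in chondrocytes (interval from 11.6 to 24.9), the largest fold among the 8 chains.

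In the chondrocyte library, *Col8a1* and *Col8a2* were near each other per kilobase of exon, at 6.92 and 6.28 scaled CPM, and the interval of their ratio (0.980 to 1.24) included 1. With coding lengths the ratio was 1.18 (interval from 1.05 to 1.33). In dermal fibroblasts the levels per kilobase of exon were 23.6 and 0.375, and *Col8a1* stood 63.0 times above *Col8a2* (interval from 44.3 to 92.9). *Col8a2* made up 44.3% of the collagen VIII counts in chondrocytes (95% interval 41.4% to 47.3%) and 1.38% in dermal fibroblasts (0.937% to 1.95%). The ratio of *Col8a1* to *Col8a2* was 57.0-fold higher in dermal fibroblasts (exact conditional interval 39.2 to 85.7). Both chains were low next to collagen VI, and summed collagen VIII took 0.00606% of the counts in chondrocytes and 0.0128% in dermal fibroblasts.

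*Col8a1* lies on the minus strand of chromosome 16 from 57624256 to 57754737, and *Col8a2* on the plus strand of chromosome 4 from 126286794 to 126314330. The 250 bases before the start of each are shown with the same marks, since these chains differed in opposite directions.
Col8a1 (chr16:57754738-57754987, minus strand): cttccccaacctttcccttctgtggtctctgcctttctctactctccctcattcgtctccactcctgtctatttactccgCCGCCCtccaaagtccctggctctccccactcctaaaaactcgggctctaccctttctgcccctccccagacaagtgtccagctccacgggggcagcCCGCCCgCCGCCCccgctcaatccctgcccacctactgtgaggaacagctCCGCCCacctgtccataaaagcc
Col8a2 (chr4:126286544-126286793, plus strand): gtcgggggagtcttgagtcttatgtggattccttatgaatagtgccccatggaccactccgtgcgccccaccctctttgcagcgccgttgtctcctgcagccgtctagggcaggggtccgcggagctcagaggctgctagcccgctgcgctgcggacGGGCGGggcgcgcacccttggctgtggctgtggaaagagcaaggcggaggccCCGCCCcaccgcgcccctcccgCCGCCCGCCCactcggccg
Each window held 4 matches to the GC box, as GGGCGG or its reverse complement CCGCCC, and none of the other 3 motifs. The pair nearest the start of *Col8a2* overlap. GC content was 60.8% for *Col8a1* and 70.0% for *Col8a2*, against a median of 52.4% over 32851 RefSeq windows of this length. Over the 9 windows of the 8 chains, the GC box was found in 6, TATAAA in 1 (*Col13a1*), CCAAT in 1 (*Col25a1*) and AACAAT in 0. Of all windows, 32.7% held the GC box, 12.4% TATAAA, 33.8% CCAAT and 9.42% AACAAT. A match is a description of the letters only, and the absence of one says nothing about the binding of a factor.

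*Col13a1*, collagen XIII, a cell adhesion collagen known from neuromuscular junctions and many mesenchymal cells, had 43 counts in chondrocytes against 7 in dermal fibroblasts, or 2.40 and 0.380 scaled CPM. It was 6.31-fold higher in chondrocytes (interval from 2.81 to 16.6). These are the lowest counts of the 8 chains, and the interval of its fold is the widest. Its annotated span on chromosome 10 (61838234 to 61979206) overlaps 4 other RefSeq genes, of which *Gm40674* and *Gm51766* lie on the opposite strand. The strand setting of the counting is not given in the sources used here, so reads from either strand cannot be told apart there.

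*Col23a1*, collagen XXIII, which occurs at the surface of epithelial cells such as keratinocytes, had 116 counts in chondrocytes against 502 in dermal fibroblasts, or 6.47 and 27.3 scaled CPM. It was 4.21-fold higher in dermal fibroblasts (interval from 3.44 to 5.20). *Col25a1*, collagen XXV, needed for motor neurons to innervate muscle, had 133 and 105 counts, or 7.42 and 5.70 scaled CPM. Its fold of 1.30 in favour of chondrocytes had an interval from 0.9997 to 1.70, which only just included 1 with TMM scaling. Whether it includes 1 depends on the scaling, since *Actb* scaling moved all log2 folds up by 0.12. A difference beyond counting error was therefore not settled at this depth.

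Per kilobase of exon, *Col23a1* was the highest of the 3 in each library, at 1.13 and 4.75 scaled CPM, ahead of *Col25a1* at 0.799 and 0.614 and *Col13a1* at 0.520 and 0.0824. In chondrocytes *Col23a1* and *Col25a1* were nearer per kilobase of coding sequence, at 4.05 and 3.71. By counts *Col25a1* was ahead there, with 133 against 116, and no interval was computed for their order. *Col23a1* made up 39.7% of the transmembrane counts in chondrocytes (interval from 34.1% to 45.6%) and 81.8% in dermal fibroblasts (78.5% to 84.7%). The ratio of *Col23a1* to *Col25a1* was 5.47-fold higher in dermal fibroblasts (exact conditional interval 3.90 to 7.69), and that of *Col13a1* to *Col23a1* was 26.4-fold higher in chondrocytes (11.4 to 71.4). The ratio of *Col13a1* to *Col25a1* was 4.83-fold higher in chondrocytes (2.04 to 13.2). *Col23a1* lies on the plus strand of chromosome 11 from 51289679 to 51583925, and *Col25a1* on the plus strand of chromosome 3 from 130180358 to 130599884. In sum the 3 genes had 292 counts in chondrocytes against 614 in dermal fibroblasts.

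**Figure D3:**
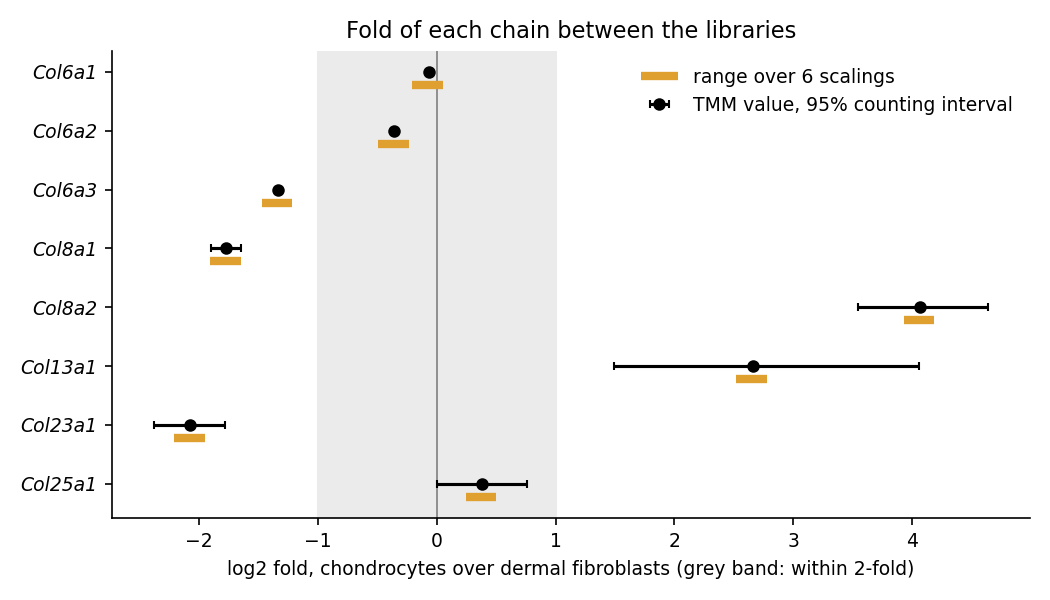
Log2 fold of each chain, chondrocytes over dermal fibroblasts (horizontal axis), with the 95% counting interval as a black bar and the range over 6 scalings as a yellow bar. *Col8a2* and *Col13a1* lie to the right of the grey band of 2-fold, *Col6a3*, *Col8a1* and *Col23a1* to the left, and *Col6a1*, *Col6a2* and *Col25a1* within it.

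Markers of other cell types were read beside these folds. The 10 skeletal muscle markers all had at least 100 counts in each library and summed to 2032 scaled CPM in chondrocytes and 1438 in dermal fibroblasts, with 4 of 10 over 2-fold higher in chondrocytes. None of them was at 0, and their part in the *Col13a1* and *Col25a1* values was not tested. The 6 keratinocyte markers summed to 8.93 scaled CPM in chondrocytes and 249 in dermal fibroblasts. In the latter, 4 of 6 were over 2-fold higher, and none was at 0 in either library. Their part in the *Col23a1* value was not tested. The 5 endothelial markers summed to 13.6 and 40.7 scaled CPM, with 4 of 5 over 2-fold higher in dermal fibroblasts. The 5 smooth muscle and pericyte markers summed to 730 and 2503, with 3 of 5 over 2-fold higher there. Most of these sums came from *Acta2* (506 and 1400 scaled CPM) and *Pdgfrb* (207 and 1057). *Cnn1* (95 and 113 counts) and *Rgs5* (48 and 33) lay within 2-fold, with *Rgs5* on the chondrocyte side. None of the endothelial, smooth muscle and pericyte markers was at 0. Their part in the *Col6a3* and *Col8a1* values, and that of the dermal fibroblast markers given above, was not tested.

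Among the 11162 genes with at least 100 counts in a library, 4.79% had a log2 fold below that of *Col23a1*, 6.38% below that of *Col8a1* and 9.39% below that of *Col6a3*. For *Col6a2*, *Col6a1* and *Col25a1* the shares were 29.6%, 45.0% and 74.8%. Set beside the same genes, the fold of *Col13a1*, itself under 100 counts, exceeded 97.6% of them and that of *Col8a2* exceeded 98.8%.

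Set against the 43 collagen chain genes with more than 3 counts in a library, ranked from the highest fold in chondrocytes to the highest in dermal fibroblasts, *Col8a2* stood at rank 9, *Col13a1* at 13 and *Col25a1* at 18. *Col6a1* and *Col6a2* followed at ranks 20 and 21, *Col6a3* at 24, *Col8a1* at 31 and *Col23a1* at 33. Of the 43 chains, 14 were over 2-fold higher in chondrocytes, 20 in dermal fibroblasts and 9 within 2-fold, and the 8 described here account for 3 of those 9. The outermost chain on the chondrocyte side was *Col2a1*, with 1447098 counts against 0.

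By level per kilobase of exon, among the 43 chains with an annotated length, *Col6a1* ranked 6 in chondrocytes and 4 in dermal fibroblasts, *Col6a2* ranked 9 and 8, and *Col6a3* ranked 13 and 6. *Col8a1* ranked 25 and 16, *Col8a2* 27 and 32, *Col23a1* 30 and 21, *Col25a1* 32 and 28, and *Col13a1* 37 and 36. These ranks hold for exon length only. Per kilobase of coding sequence, *Col6a2* stood above *Col6a3* in dermal fibroblasts, at 925 against 589 scaled CPM. The 8 chains made up 5.70% of all collagen counts in chondrocytes against 15.1% in dermal fibroblasts, while all collagen chains together took 12.2% and 7.60% of the counts of each library. These shares rest on unlike totals. *Col2a1* alone held 1447098 of the 2288189 collagen counts in chondrocytes and 0 of the 1334670 in dermal fibroblasts.

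The collagen chain nearest in log2 fold was sought for each of the 8 among 30 other chains with at least 100 counts in a library. With only 2 libraries this likeness rests on 1 value per gene. *Col8a1* (-1.77) was nearest to *Col5a2* (-1.76), *Col25a1* (0.38) to *Col16a1* (0.47), *Col13a1* (2.66) to *Col19a1* (2.77), and *Col6a3* (-1.34) to *Col12a1* (-1.47). *Col23a1* (-2.08) was nearest to *Col4a2* (-2.27). The other 3 had none of these 30 chains within 0.3 on the log2 scale. Their nearest were *Col14a1* (0.27) for *Col6a1*, *Col4a5* (-0.93) for *Col6a2* and *Col27a1* (4.76) for *Col8a2*.

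**Figure D4:**
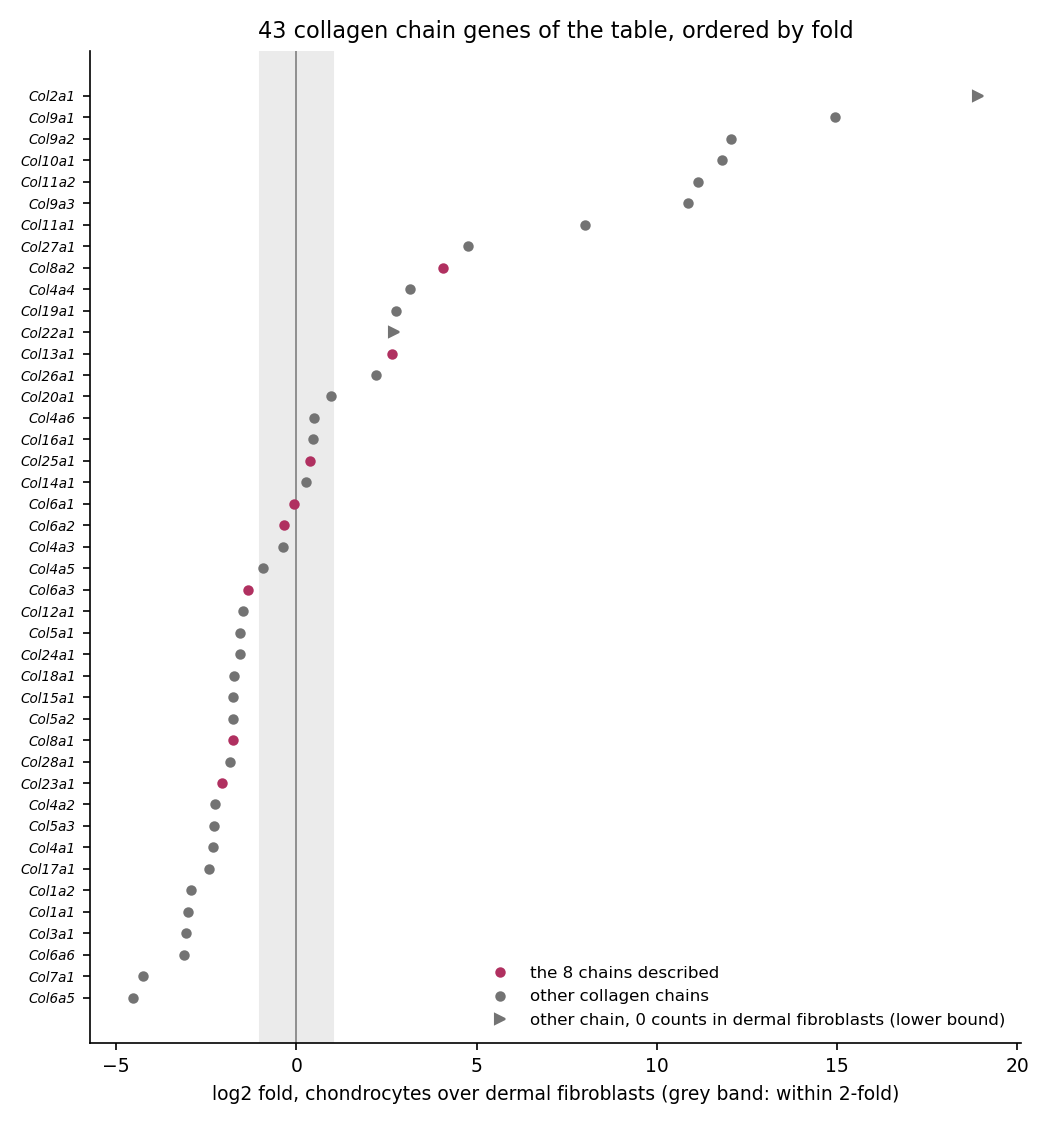
Log2 fold, chondrocytes over dermal fibroblasts (horizontal axis), of the 43 collagen chain genes with more than 3 counts in a library, ordered by fold, with the 8 chains in red and lower bounds as triangles. The 8 chains spread from rank 9 (*Col8a2*) to rank 33 (*Col23a1*).

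The genes that work with these collagens were taken from a list of 28: other collagen VI chains, receptors, linkers of the pericellular matrix, related collagens and processing enzymes. Of the 28, 8 were over 2-fold higher in chondrocytes, 11 were over 2-fold higher in dermal fibroblasts and 8 lay within 2-fold. Among the 14730 genes with at least 10 counts over both libraries, the shares were 12.0% and 16.2%. Over the scalings the partner counts ran from 7 to 9 in chondrocytes and from 9 to 11 in dermal fibroblasts. The list was chosen with earlier results of these data known. *Col6a4*, with 0 counts in chondrocytes against 1 in dermal fibroblasts, had no fold. The median log2 fold of the other 27 was -0.34.

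The alternative collagen VI chains can take the place of α3(VI) in a molecule. *Col6a6*, the α6(VI) chain, had 76 counts in chondrocytes against 680 in dermal fibroblasts and was 8.71-fold higher in the latter (interval from 6.87 to 11.2). *Col6a5*, named after its values were seen, had 4 and 96 counts. It was 23.4-fold higher in dermal fibroblasts, with an interval from 8.84 to 87.5. Both thus lay on the same side as *Col6a3*, at levels per kilobase of exon of at most 4.94 scaled CPM against 393 for *Col6a3* in dermal fibroblasts.

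Of the 10 receptor genes, 3 were higher in each cell type and 4 lay within 2-fold. *Cspg4*, the NG2 proteoglycan that binds collagen VI at the cell surface, had 10824 and 2976 counts and was 3.74-fold higher in chondrocytes (interval from 3.59 to 3.89). *Antxr1*, an anthrax toxin receptor that binds matrix collagens, had 2070 and 4572 counts and was 2.15-fold higher in dermal fibroblasts, but its log2 fold of -1.10 went to -0.98 with *Actb* scaling, within 2-fold. The collagen-binding integrin α subunits parted. *Itga10* had 1907 and 55 counts and was 35.6-fold higher in chondrocytes (interval from 27.2 to 47.5), and *Itga1* had 777 and 348 counts and was 2.29-fold higher there. *Itga11* had 678 and 4791 counts and was 6.88-fold higher in dermal fibroblasts (interval from 6.35 to 7.47), and *Itga2* had 18 and 139 counts and was 7.52-fold higher there. Their shared partner *Itgb1* had 11953 and 19864 counts, within 2-fold.

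The linkers also parted. *Matn3*, a matrilin of cartilage, had 10193 counts in chondrocytes against 8 in dermal fibroblasts, a 1309-fold difference (interval from 664 to 3032). *Matn1* had 2052 and 0 counts. With the 0 set to a floor of 3 counts per library, it was 702.5-fold higher in chondrocytes, a bound set by the floor. Its counting interval began lower, at 571. *Hspg2*, the basement membrane and pericellular proteoglycan perlecan, had 49320 and 23490 counts and was 2.16-fold higher in chondrocytes, though its log2 fold of 1.11 went to 0.97 with total counts. The small leucine-rich proteoglycans *Bgn* and *Dcn*, which bind collagen VI, were 2.04-fold and 3.43-fold higher in dermal fibroblasts. *Bgn* had 50802 and 106591 counts, and its log2 fold of -1.03 went to -0.91 with *Actb* scaling and lay within 2-fold with 2 further scalings. *Tgfbi*, a collagen-binding matrix protein, had 9419 and 5090 counts and lay within 2-fold, but its log2 fold reached 1.05 with *Actb* scaling.

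*Col10a1*, the short-chain collagen of hypertrophic cartilage and a relative of collagen VIII, had 10378 counts in chondrocytes against 3 in dermal fibroblasts, a ratio of 3553 with an interval from 1215 to 17232. *Col17a1*, the transmembrane collagen of hemidesmosomes in epidermal cells, had 79 and 434 counts and was 5.35-fold higher in dermal fibroblasts (interval from 4.20 to 6.89). It lay on the same side as *Col23a1* and as the keratinocyte markers given above, and their part in its value was not tested.

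Among the 7 processing enzymes, *Pcsk6*, a secreted proprotein convertase, had 7046 and 296 counts and was 24.4-fold higher in chondrocytes (interval from 21.8 to 27.6). *Pcsk5*, of the same family, had 300 and 948 counts and was 3.08-fold higher in dermal fibroblasts. *Mmp14*, a membrane-bound collagenase, had 4317 and 28140 counts and was 6.35-fold higher in dermal fibroblasts. *Bmp1*, a procollagen proteinase, had 2363 and 11232 counts and was 4.63-fold higher in dermal fibroblasts. The convertases *Furin* (3132 and 3282 counts) and *Pcsk7* (565 and 672) and the sheddase *Adam17* (1896 and 1733) lay within 2-fold.

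**Figure D5:**
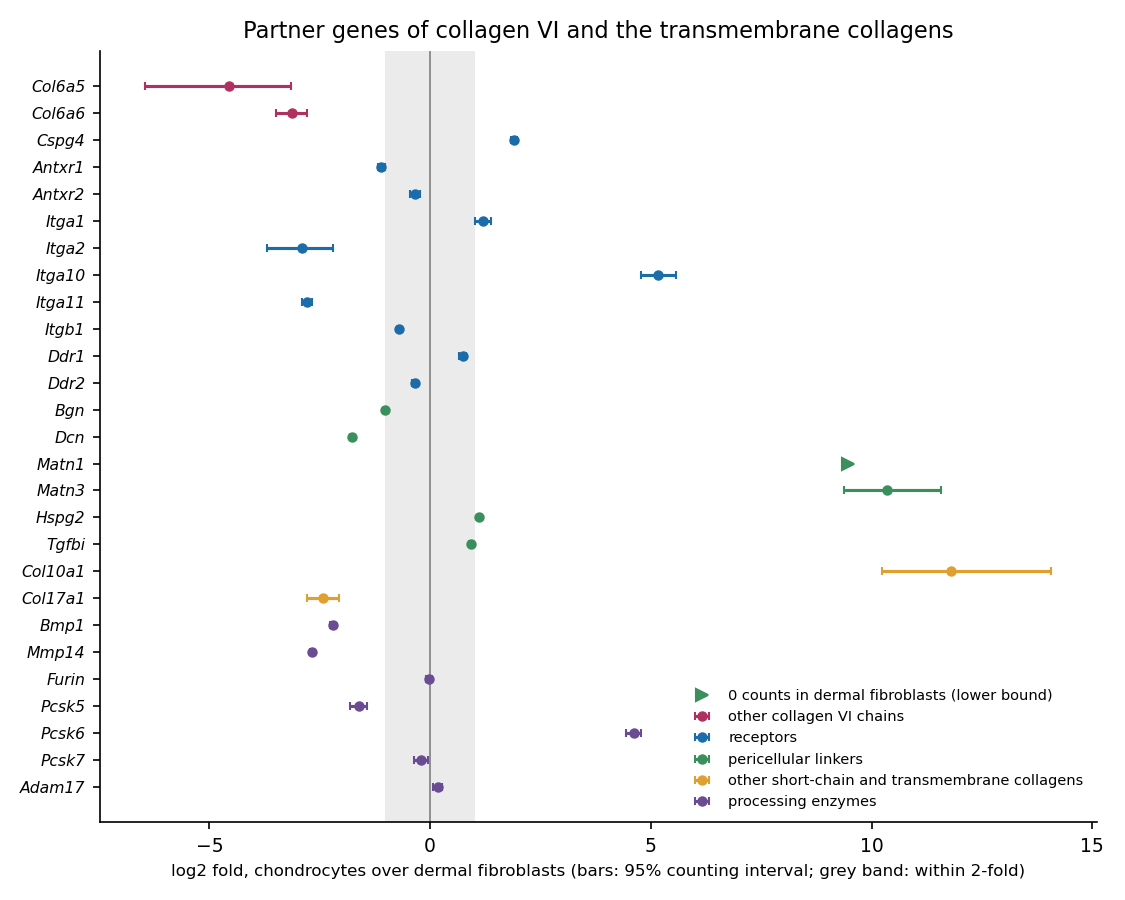
Log2 fold, chondrocytes over dermal fibroblasts (horizontal axis), of 27 partner genes coloured by role, with 95% counting intervals as bars and *Matn1* as a lower bound. Both directions occur among receptors, linkers and processing enzymes, with *Col10a1*, *Matn3* and *Matn1* farthest to the chondrocyte side.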

How the data were processed

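Stranded mRNA libraries had been sequenced by the authors as 75 bp single-end reads, base-called with CASAVA 1.8.2 and mapped to mm10 with TopHat2 2.0.13, Bowtie2 2.2.3 and SAMtools 0.1.19, per the study's methods and the submitters' processing notes. The deposited values are whole-number counts of reads per gene symbol, without normalization. The counting program, its annotation and its strand setting are not given in the sources used here.

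Counts of the whole table were scaled with edgeR 4.0.16 TMM factors in R 4.3.3 (0.954 for chondrocytes and 1.05 for dermal fibroblasts). Folds and Clopper-Pearson intervals came from scipy 1.17.1 and numpy 2.4.6, with tables read by pandas 2.3.3 under Python 3.11.15, and the calculation was tested on simulated counts. For a fold, a count below 3 was replaced by 3, and genes at 3 counts or fewer in both libraries were given none. Promoter windows were searched on both strands for 4 motifs chosen with the results known. Intervals of changes in the collagen VI ratios used the normal approximation to the log odds ratio, and all intervals cover counting error only. Exon and coding lengths came from GENCODE vM1, and positions and promoter windows from RefSeq on GRCm38.p6, the build of the reads. No genome coordinates were converted. The genes named were the 8 chains, the partner genes past 2-fold with at least 100 counts in a library, and the nearest other collagen chain of each. Outside this rule, *Col6a4*, *Col6a5*, *Itgb1*, *Tgfbi*, *Furin*, *Pcsk7*, *Adam17* and the outermost chain *Col2a1* were named after their values were seen, as were single markers. The members, partner list and marker lists were chosen with earlier results of these data known.

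Alternatives were 5 other scalings (total counts, DESeq2 1.42.0 median-of-ratios, upper quartile, totals after removing from both libraries any gene among the 10 most abundant in either, and *Actb*), floors at 1 and at 10, a pseudocount of 1, a minimum of 10 counts, a fold over 4 and the bound of the interval over 2.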

Additional observations from a re-analysis of the deposited data

How the results depend on the processing

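No paired analysis was possible because only 1 library of either cell type was sequenced. Leaving out a library was not possible for the same reason.

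The number of chains over 2-fold higher was 2 in chondrocytes and 3 in dermal fibroblasts under each scaling, floor, pseudocount and filter tried. It was the same with the bound of the counting interval over 2. Most of these settings could hardly alter it, as the filter removed no chain and the floors changed only the fold of *Col13a1*. *Col6a3*, the called chain nearest the threshold, had a log2 fold of -1.34, and the scalings moved log2 folds by -0.14 to 0.12. With a fold over 4 the numbers were 2 and 1, which a stricter threshold lowers by construction. The same threshold gave 5 and 7 of the partner genes, against 8 and 11, and 713 and 929 of all genes, against 1887 and 2468. With the bound of the interval over 2, all genes numbered 1041 and 1546. A pseudocount of 1, used without the floor of 3, gave 2876 of all genes over 2-fold higher in chondrocytes and 2846 in dermal fibroblasts. With it, 1 count in chondrocytes and none in dermal fibroblasts passes 2-fold after scaling, while the reverse does not. How many genes passed in this way was not counted. Of 64 log2 folds of the 8 chains under 8 alternatives, 16 lay outside the counting interval of the value reported, and no chain past 2-fold changed direction. The widest range was 2.14 to 2.78, for *Col13a1*, and *Col6a1*, within 2-fold throughout, ran from -0.20 to 0.05. Total counts moved all log2 folds by -0.14 and *Actb* by 0.12.

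With coding lengths, an alternative chosen after seeing the data, the ratio of *Col6a2* to *Col6a1* went from 0.384 to 0.721 in chondrocytes and from 0.468 to 0.880 in dermal fibroblasts. That of *Col6a3* to *Col6a1* went from 0.222 to 0.233 and from 0.534 to 0.560. That of *Col6a3* to *Col6a2* went from 0.578 to 0.323 and from 1.14 to 0.637, which turns their order in dermal fibroblasts. These shifts follow from the lengths alone. Protein lengths were not run, as no protein table was used here.

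The depth limits *Col13a1* (7 counts in dermal fibroblasts) and *Col8a2* (31 counts) most, and differences between animals or cultures were not measured for any chain.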

Other observations

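Markers of Schwann cells and macrophages were also compared. The 4 Schwann cell markers summed to 13.6 scaled CPM in chondrocytes and 44.8 in dermal fibroblasts, with 2 of 4 over 2-fold higher in the latter. *Sox10*, the defining transcription factor of the glial lineage, had 25 and 310 counts. The 4 macrophage markers summed to 93.7 and 149 scaled CPM, with 1 of 4 over 2-fold higher in dermal fibroblasts, and *Ptprc* had 50 and 76 counts. None of these markers was at 0 in either library, and their part in the values of the collagen chains was not tested.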
